A study of Mus musculus with 4 samples.

Results

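The small heat shock proteins were followed in whole mammary fat pad (MFP) of female mice, the fatty tissue that surrounds the mammary ducts. The group comprised 7 of the 55487 genes in the count table, Hspb1, Hspb2, Hspb3, Hspb6, Hspb7, Hspb8 and Cryab, each found by its symbol. These genes were selected on measured values of these same libraries, with the difference between the ages known, so their values in aged and young MFP are given as a description and no test of them is reported. The 2 aged samples came from mice of 14 months and the 2 young samples from mice of 8 weeks. The labels give the strain as C57BL/6J. The study's methods name strain J for its mice in general and C57BL/6NCrl for those injected in the MFP. No treatment or altered allele is named for either age. The labels call the samples of an age biological replicates and do not say how many mice each one holds. Total RNA was taken from chopped and lysed tissue, so every cell type of the pad contributed, and a lower content of a cell type cannot be told apart from less RNA per cell.

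Small heat shock proteins share an alpha-crystallin domain and assemble into oligomers that hold unfolding proteins without using ATP, until HSP70 and its co-chaperones refold them or they are passed on for degradation. Hspb1 and Cryab are induced by heat and other stress through heat shock factors, which bind repeats of a short element in promoters. Most of the family is abundant in striated muscle, where the proteins sit on the actin, desmin and filamin networks of the sarcomere. Several are also made in smooth muscle, and Cryab is a main protein of the eye lens.

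The sequences just upstream of the start sites are shown because members of one family with higher values at the same age invite a look at what their promoters share. RefSeq promoters on GRCm38.p6 were found for 5 of the 7 genes. The table held no entry for Hspb2 and Cryab. In each, the 250 bases before the start were searched on both strands, and the stretch nearest the start that lies outside annotated exons is printed from 5′ to 3′ on the strand of the gene. Capitals mark GAANNTTC, a facing pair of the heat shock element's core, and the MEF2 box, a site type of muscle promoters. They stand at chr5:135887789-135887918 (plus strand) for Hspb1, chr13:113663677-113663806 (minus strand) for Hspb3, chr7:30553171-30553267 (plus strand) for Hspb6, chr4:141420649-141420778 (plus strand) for Hspb7 and chr5:116422865-116422994 (minus strand) for Hspb8.
Hspb1: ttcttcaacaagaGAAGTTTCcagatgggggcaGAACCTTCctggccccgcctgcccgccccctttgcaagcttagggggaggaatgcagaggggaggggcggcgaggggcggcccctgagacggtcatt
Hspb3: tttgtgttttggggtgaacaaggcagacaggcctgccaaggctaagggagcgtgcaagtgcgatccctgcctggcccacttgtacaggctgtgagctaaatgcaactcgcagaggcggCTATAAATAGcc
Hspb6: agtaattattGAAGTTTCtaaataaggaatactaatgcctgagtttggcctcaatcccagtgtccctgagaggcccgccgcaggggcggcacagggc
Hspb7: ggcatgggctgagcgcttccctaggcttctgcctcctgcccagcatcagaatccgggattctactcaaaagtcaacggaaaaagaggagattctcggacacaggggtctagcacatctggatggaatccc
Hspb8: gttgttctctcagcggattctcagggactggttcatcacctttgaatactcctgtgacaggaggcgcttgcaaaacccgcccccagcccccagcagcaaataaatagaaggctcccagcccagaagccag
GAANNTTC was present in 6.7% of the 32851 promoters of the same length. Hspb1 held 2 copies, GAACCTTC at 90 to 97 bases and GAAGTTTC at 110 to 117 bases before its start. Hspb6, for which RefSeq lists 2 starts, held GAAGTTTC at 113 to 120 bases before the one shown. No motif searched matched in the 250 bases before the other start of Hspb6. Hspb3 held GAATTTTC at 217 to 224 bases, outside the stretch printed. The MEF2 box, found in 2.9% of promoters, occurred in Hspb3 alone among the 5 genes, as CTATAAATAG at 3 to 12 bases before the start, which takes in the TATA box. The TATA box searched, TATAAA, was found in 12.4% of promoters and in Hspb3 and Hspb6. In Hspb6 it lay 24 to 29 bases before the same start as GAAGTTTC, in exon bases left out of the stretch printed. Neither the other facing pair, TTCNNGAA (7.2% of promoters), nor the CArG box of smooth muscle promoters (1.5%) matched in any of the 5. Hspb7 and Hspb8 held none of these in the window searched. CANNTG, the E-box, was in 66.2% of promoters and in 4 of the 5 genes, and no motif searched was held by all 5. These matches are descriptions of sequence, and no binding was measured.

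Each library held between 68803304 and 98402403 counted reads. At that depth 3 counts, taken as the floor, corresponded to between 0.0337 and 0.0407 CPM (counts scaled to the library total), which covers counting error only. All 7 genes exceeded 10 counts in every library, and all 7 passed the filter on low counts that 22485 genes passed. One library stood apart: over the genes tested, young replicate 1 differed from the other 3 libraries by a root mean square of 1.08 to 1.27 in log2 CPM, whereas those 3 differed from each other by 0.70 to 0.98. edgeR's quasi-likelihood test of aged against young MFP called 0 genes (0% of those tested), with 2371 genes at an unadjusted p under 0.05, while DESeq2 called 852 genes. The tissue markers were present: 12 of 12 adipocyte and 9 of 10 mammary epithelial markers passed the filter, and of the latter Wap, a milk protein gene, was at 0 counts throughout.

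All 7 small heat shock protein genes had both aged libraries above both young libraries. Of all genes tested, 23.3% had that order and 22.8% had the reverse, and the count for the 7 follows from how they were selected. Their median log2 fold change was 1.57, beside a median of -0.04 over all genes tested. The sizes ranged widely, from 0.92 for Hspb1 to 4.47 for Hspb7. With young replicate 1 left out, the 7 values remained positive, which follows from that order, and their median was 1.44.

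**Figure D1:**
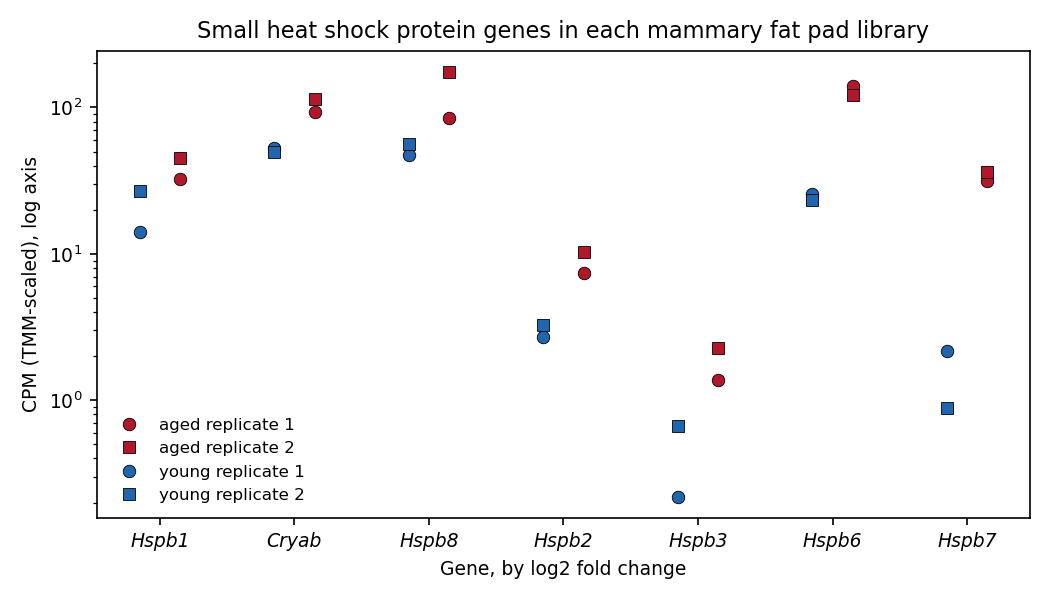
CPM of each small heat shock protein gene in the 4 MFP libraries on a log axis, ordered by log2 fold change, with aged libraries in red, young libraries in blue and the replicate given by the marker shape. The red points lie above the blue points for all 7 genes, with the narrowest gap for Hspb1 (32.49 against 27.07 CPM) and the widest for Hspb7 (31.44 against 2.171 CPM).

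Hspb7, a small heat shock protein of heart and skeletal muscle that binds filamin C, had the widest difference. Hspb7 (ENSMUSG00000006221, chromosome 4 of GRCm38, 141420779 to 141425311, plus strand) had 2571 and 3230 reads in aged libraries against 178 and 65 in young ones. These were 31.44 and 36.27 CPM in aged replicates 1 and 2 and 2.171 and 0.8808 CPM in young replicates 1 and 2. The lowest aged library was thus 14.5-fold above the highest young one, and the aged mean of 33.86 ± 3.414 CPM (SD, n = 2) was 22.2-fold the young mean of 1.526 ± 0.9125 CPM (SD, n = 2). The aged libraries were close to each other, and the young ones differed more in proportion, with young replicate 2 at 0.406 of young replicate 1. Its log2 fold change was 4.47 with a standard error (SE) of 0.54, which became 5.26 without young replicate 1 and 3.97 without young replicate 2. Of all genes tested, 0.222% had a higher log2 fold change.

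Hspb6, known as HSP20 and for its part in smooth muscle relaxation, was second in size and had the smallest standard error. Hspb6 (ENSMUSG00000036854, chromosome 7, 30552178 to 30555443, plus strand) was at 140.6 and 122.1 CPM in aged libraries against 25.45 and 23.4 CPM in young ones, from 11496, 10872, 2086 and 1727 counts. The aged mean of 131.3 ± 13.08 CPM (SD, n = 2) was 5.38-fold the young mean of 24.42 ± 1.445 CPM (SD, n = 2). The library of aged replicate 2 was the lower of the aged pair for this gene, and the higher one for the other 6. The log2 fold change of Hspb6 was 2.43 (SE 0.15) and stayed between 2.31 and 2.53 with each library left out in turn. Proser3 and Lin37 overlap it on the other strand, over 122 and 3 of its 2299 exon bases, and the microRNA gene Gm38670 lies over 77 of them on the same strand.

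Hspb2 and Hspb3 encode proteins that assemble with each other in muscle cells. Hspb3 (ENSMUSG00000051456, chromosome 13, 113662896 to 113663676, minus strand) was the least abundant, with 113 and 202 reads in aged libraries against 18 and 49 in young ones. This corresponded to 1.382 and 2.268 CPM in aged and 0.2196 and 0.664 CPM in young MFP, a fold of 4.13 between the means. Both replicate pairs of Hspb3 were wide, the young libraries by 3.02-fold, and its log2 fold change of 2.05 (SE 0.69) became 3.06 without young replicate 2 and 1.46 without young replicate 1. Hspb2 (ENSMUSG00000038086, chromosome 9, 50751078 to 50752354, minus strand) was at 7.423 and 10.25 CPM in aged and 2.684 and 3.252 CPM in young MFP, from 607, 913, 220 and 240 counts. The aged and young pairs of Hspb2 lay well apart, with means of 8.838 ± 2.0 and 2.968 ± 0.402 CPM (SD, n = 2 each), a fold of 2.98. The log2 fold change was 1.57 (SE 0.29), and between 1.32 and 1.78 with each library left out.

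Cryab, which encodes alpha B-crystallin, a chaperone of desmin filaments, is the head-to-head neighbour of Hspb2. Cryab (ENSMUSG00000032060, chromosome 9, 50751325 to 50756636, plus strand) was at 92.41 and 114.4 CPM in aged and 52.86 and 49.87 CPM in young MFP, from 7556, 10192, 4333 and 3680 counts. Both pairs were narrow, and the aged mean of 103.4 ± 15.59 CPM (SD, n = 2) was 2.01-fold the young mean of 51.36 ± 2.114 CPM (SD, n = 2). Its log2 fold change of 1.01 (SE 0.16) was between 0.85 and 1.14 with each library left out. In GENCODE M21, Cryab and Hspb2 lie on opposite strands and share 252 exon bases, 17.0% of those of Cryab and 30.2% of those of Hspb2. The libraries keep the strand of the RNA, but whether the counting used it is not given in the sources used here, so reads in the shared bases may have been counted to either gene or to neither.

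Hspb8, which joins Bag3 in clearing damaged filamin by autophagy, showed the widest spread between aged libraries. Hspb8 (ENSMUSG00000041548, chromosome 5, 116408491 to 116422864, minus strand) was at 84.75 and 174.7 CPM in aged and 47.46 and 56.64 CPM in young MFP, from 6930, 15561, 3891 and 4180 counts. Aged replicate 2 was 2.06-fold aged replicate 1, more than the 1.5-fold that separated aged replicate 1 from the higher young library. The means were 129.7 ± 63.63 and 52.05 ± 6.49 CPM (SD, n = 2 each), a fold of 2.49. The log2 fold change of 1.32 (SE 0.39) was 0.70 without aged replicate 2.

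Hspb1, which encodes HSP27 (HSP25 in mice), a regulator of actin filaments, had the smallest difference. Hspb1 (ENSMUSG00000004951, chromosome 5, 135887919 to 135889563, plus strand) was at 32.49 and 45.46 CPM in aged and 14.08 and 27.07 CPM in young MFP, from 2657, 4048, 1154 and 1998 counts. The lower aged library exceeded the higher young one by 1.2-fold, less than the 1.92-fold between the young libraries. The means of Hspb1 were 38.97 ± 9.166 and 20.58 ± 9.191 CPM (SD, n = 2 each), a fold of 1.89. Its log2 fold change of 0.92 (SE 0.40) was 0.52 without young replicate 1, the library that stood apart, and 1.48 without young replicate 2. Of all genes tested, 7.73% had a higher log2 fold change than Hspb1, the member nearest the middle.

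**Figure D2:**
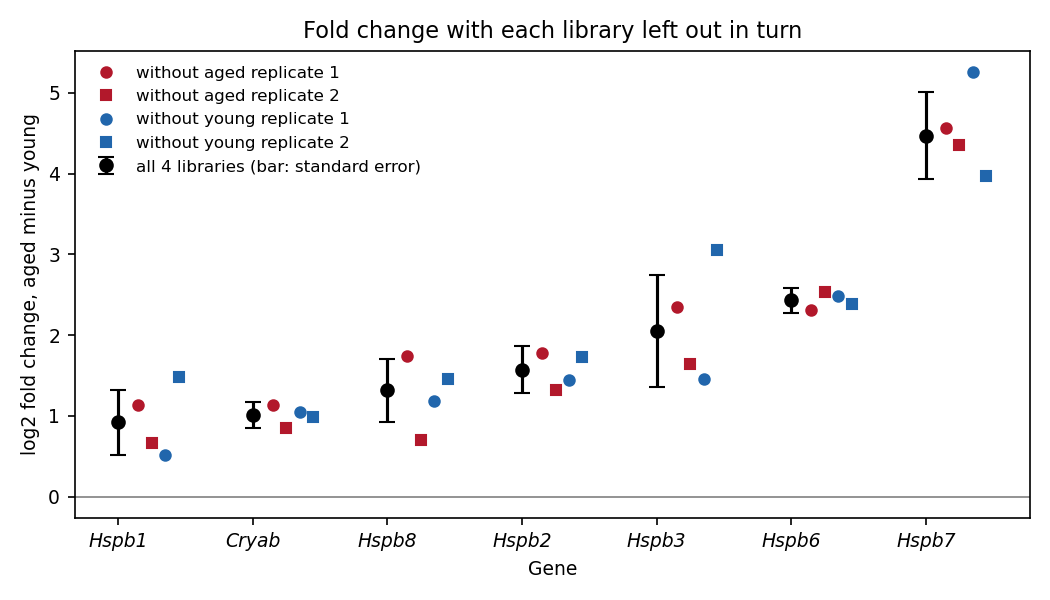
log2 fold change (aged minus young) of each gene from all 4 libraries in black, with its standard error, and with each library left out in turn in colour. Every point lies above 0, which follows from both aged libraries exceeding both young ones for each gene. The points spread most for Hspb3 (1.46 to 3.06) and least for Hspb6 (2.31 to 2.53).

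The members were then compared with each other per kilobase of annotated exon. The level of the whole group, summed over the 7 genes, was 220.6 and 292.5 CPM per kilobase in aged and 89.08 and 104.3 CPM per kilobase in young MFP. In aged MFP the order of levels had a leading trio: Cryab at 62.48 and 77.38, Hspb8 at 43.46 and 89.61 and Hspb6 at 61.15 and 53.1 CPM per kilobase. The replicates of Hspb8 overlapped those of both Cryab and Hspb6, and also reached down to Hspb1 at 31.52 and 44.09 CPM per kilobase. Hspb7, at 11.35 and 13.1 CPM per kilobase, overlapped Hspb2 at 8.901 and 12.29, and Hspb3 was lowest at 1.769 and 2.904. In young MFP Cryab led at 35.74 and 33.72 CPM per kilobase, above Hspb8 at 24.34 and 29.05, whose replicates overlapped those of Hspb1 at 13.65 and 26.26. Below these stood Hspb6 at 11.07 and 10.18, Hspb2 at 3.218 and 3.899, and then Hspb7 at 0.7841 and 0.3181 with Hspb3 at 0.2811 and 0.8502 CPM per kilobase, which overlapped each other. Per kilobase of exon, Hspb6 thus stood below Hspb1 in both young libraries and above it in both aged libraries, an exchange that was lost with coding length, where Hspb6 stood above Hspb1 in all 4. Hspb7 likewise stood below Hspb2 in both young libraries and above it in each aged library, though in aged MFP their replicates overlapped.

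The makeup of the group differed between the ages, with larger shares of Hspb6 and Hspb7 and a smaller share of Cryab in aged MFP. Hspb6 made up 27.7% and 18.2% of the summed level per kilobase of exon in aged libraries against 12.4% and 9.76% in young ones. Hspb7 made up 5.15% and 4.48% in aged and 0.88% and 0.305% in young MFP. Both shares were higher in each aged library than in each young library. The share of Cryab was lower in aged MFP, at 28.3% and 26.5% against 40.1% and 32.3%. That of Hspb1, at 14.3% and 15.1% against 15.3% and 25.2%, was close to young replicate 1 and well below young replicate 2 only. The shares of a whole depend on each other, so a higher share of one gene lowers the others. Hspb8, with 19.7% and 30.6% in aged and 27.3% and 27.9% in young MFP, overlapped between the ages, as did Hspb3. Hspb2 took 4.03% and 4.2% in aged and 3.61% and 3.74% in young MFP, a small separation that was lost with coding length.

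These levels rest on the length used, because the exons of Hspb6 and Hspb7 reach far beyond their coding sequence. Per kilobase of coding sequence, Hspb6 was the largest component in aged replicate 1 with 39.1% and held 26.9% in aged replicate 2, against 19.7% and 16.5% in young MFP. The shares of Hspb7 and Cryab kept the same separation of the ages with coding length. Over the mean of the 4 libraries, Cryab came first per kilobase of exon and after Hspb6 and Hspb8 per kilobase of coding sequence.

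**Figure D3:**
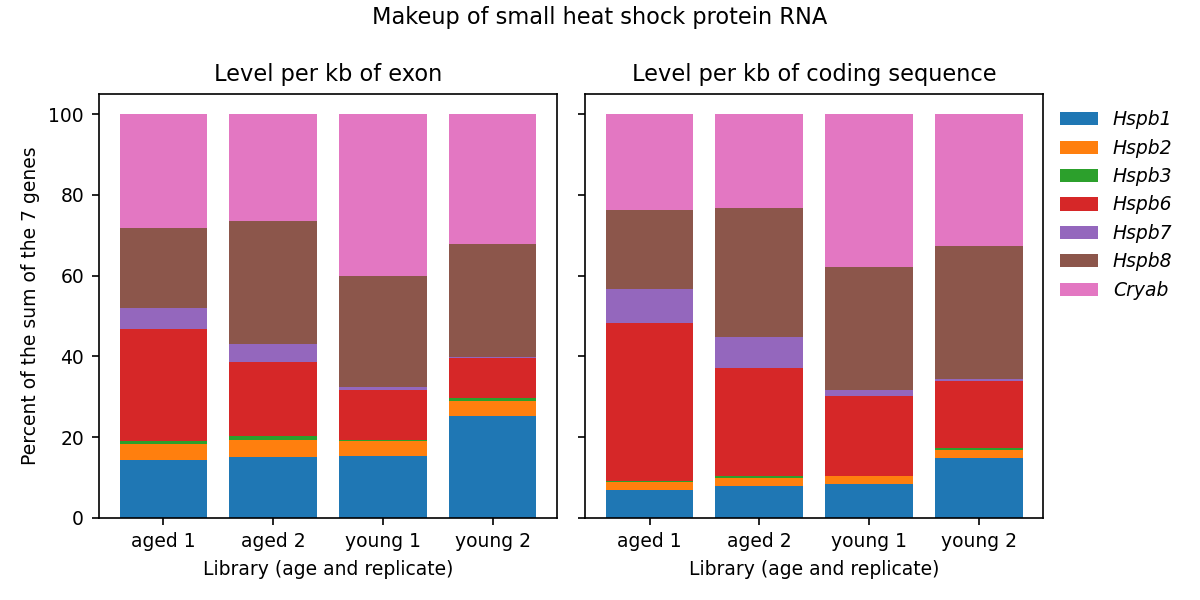
Share of each small heat shock protein gene in the summed level of the 7, in percent, in each of the 4 MFP libraries, from levels per kilobase of exon (left) and per kilobase of coding sequence (right). The red segment, Hspb6, and the purple segment, Hspb7, are taller in both aged libraries in either panel, and the pink segment, Cryab, is shorter.

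Most skeletal muscle markers, like the small heat shock proteins, were higher in both aged libraries. The 16 skeletal muscle markers, all of which passed the filter and none of which was at 0, summed to 24250 and 44190 CPM in aged and 6541 and 9823 CPM in young MFP, a fold of 4.18 between the means. Of the 16, 15 had both aged libraries above both young ones, where 23.3% of all genes tested did, and their median log2 fold change was 2.06. edgeR's quasi-likelihood test called 0 of them, 14 were higher at an unadjusted p under 0.05 (7.24% of all genes tested were), and DESeq2 called 11 higher (3.09% of all genes it tested). The marker with the highest CPM, Myh4, a fast myosin heavy chain, was at 7012 and 16390 CPM in aged and 2114 and 3491 CPM in young MFP. Aged replicate 2 held 1.82-fold the muscle marker sum of aged replicate 1, and it was also the higher aged library for 6 of the 7 members. Young replicate 2 held 1.5-fold the sum of young replicate 1. In that pair Hspb1, Hspb2, Hspb3 and Hspb8 were also higher in young replicate 2. Hspb6, Hspb7 and Cryab were lower there, at 0.92, 0.406 and 0.943 of young replicate 1. Of the 16 markers, 13 were higher in aged replicate 2, and the other 3 were far lower there: Myh1 at 1130 and 193.1 CPM, Myh2 at 577.9 and 2.156 CPM and Myh7 at 24.29 and 0.2695 CPM in aged replicates 1 and 2. The part of muscle RNA in the differences of the 7 genes was not tested.

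Set against the sum of skeletal muscle markers in the same library, the 7 genes parted in direction. Hspb7 remained higher in aged MFP, at 1.3 and 0.821 CPM per 1000 CPM of muscle markers against 0.332 and 0.0897 in young MFP, a fold of 5.02. Hspb6 overlapped between the ages, with 5.8 and 2.76 in aged and 3.89 and 2.38 in young MFP. The values of Hspb3 overlapped as well, with 0.057 and 0.0513 in aged against 0.0336 and 0.0676 in young MFP.
The other 4 genes were lower in both aged libraries on this scale. The marker sum was itself 4.18-fold higher in aged MFP, so a gene with equal CPM in every library would also be lower here. How many of all genes tested were lower on this scale was not computed. Cryab was at 3.81 and 2.59 in aged and 8.08 and 5.08 CPM per 1000 CPM of muscle markers in young MFP. The ratio of Hspb1 was 1.34 and 1.03 against 2.15 and 2.76, and that of Hspb8 was 3.49 and 3.95 against 7.26 and 5.77. Their folds of aged over young were 0.486, 0.483 and 0.572, and Hspb2 was nearest to parity with 0.726. A ratio of this kind shows that 2 sets of RNA differed by unequal amounts, and not which of them changed.

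**Figure D4:**
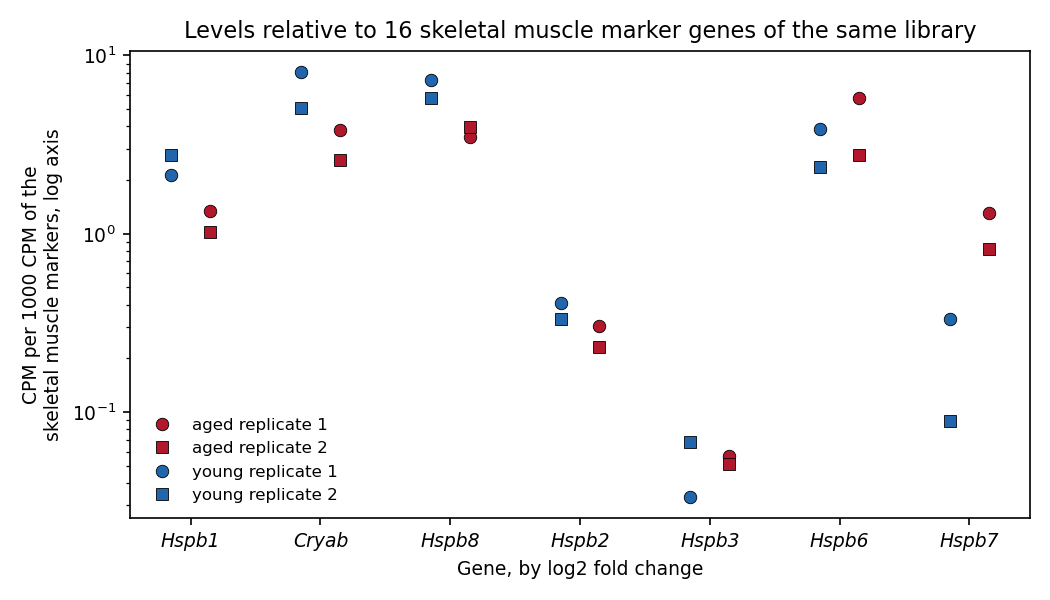
CPM of each small heat shock protein gene per 1000 CPM of the 16 skeletal muscle markers of the same library, on a log axis, with aged libraries in red and young libraries in blue. Hspb7 is the one gene with both red points above both blue points, Hspb6 and Hspb3 overlap, and the red points of Hspb1, Cryab, Hspb8 and Hspb2 lie below the blue ones.

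Other cell types of the pad gave other yardsticks. The 10 smooth muscle markers, all detected, summed to 1350 and 1715 CPM in aged and 581.8 and 1007 CPM in young MFP, with 3 of the 10 higher in both aged libraries and 1 lower (23.3% and 22.8% of all genes tested). Des and Synpo2, which are also on the partner and autophagy lists described further on, made up much of these sums, and the other 8 summed to 638.2 and 724.4 CPM in aged and 340.8 and 799.2 CPM in young MFP, which overlapped. Relative to the sum of all 10, Hspb7 was higher by 9.65-fold, Hspb6 by 2.62-fold, Hspb3 by 2.26-fold and Hspb2 by 1.46-fold with no overlap between the ages, whereas Hspb1, Hspb8 and Cryab overlapped at folds of 0.99, 1.19 and 0.963. Relative to the other 8 alone, a yardstick added after seeing the data, these 4 folds were 13.3, 3.74, 3.59 and 2.16, Hspb1 was higher without overlap by 1.51-fold, and Hspb8 and Cryab overlapped at 1.78 and 1.39. The 12 adipocyte markers, with 11 of 12 higher in both aged libraries where 23.3% of all genes tested were, summed to 18720 and 14080 CPM in aged and 11490 and 11520 CPM in young MFP. Relative to adipocyte markers, 5 of the 7 members were higher without overlap, and Hspb1 and Hspb8 overlapped. The share of all genes tested that separated on these ratios was not computed, and the 23.3% holds for plain CPM only. Of the 6 heart markers, Nppa and Nppb had 0 counts in every library, Myl7 at most 1 and Myh6 at most 27, whereas Tnni3 was at 2.617 and 2.044 CPM in aged and 3.159 and 4.621 CPM in young MFP, and Ryr2 at 2.091 and 1.606 against 4.77 and 2.087 CPM. Of the lens crystallins, Cryba1 and Cryga were at 0 in every library.

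A further 4 genes carry names of the small heat shock family. Only Hspb11, known as Ift25 and a part of the cilia transport machinery, passed the filter, at 2.69 and 3.167 CPM in aged and 4.135 and 3.076 CPM in young MFP. Its log2 fold change was -0.30 (SE 0.30, with an adjusted p = 0.689 in edgeR's test). Cryaa, the lens partner of Cryab, had at most 2 counts in any library, Odf1 at most 2 and Hspb9 at most 7.

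The 7 heat shock factors and regulators had a median log2 fold change of 0.25. Hsf1, the main heat shock factor, was at 50.65 and 53.16 CPM in aged and 47 and 55.23 CPM in young MFP, which gave a log2 fold change of 0.02 (SE 0.15, with an adjusted p = 0.958 in edgeR's test). Hsf4, the factor that acts in the lens, was at 7.069 and 8.927 CPM in aged and 2.098 and 3.645 CPM in young MFP, which gave a log2 fold change of 1.48 (SE 0.38, with an adjusted p = 0.41 in edgeR's test). Of the 7 regulators, 4 were higher and 1 was lower without overlap (23.3% and 22.8% of all genes tested). DESeq2 called 1 higher (3.09% of all genes), and edgeR's test called 0 with 1 higher at an unadjusted p under 0.05 (7.24% of all genes).

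The refolding chaperones, to which small heat shock proteins hand their clients, had medians close to that of all genes. The median log2 fold change was 0.09 for the 15 HSP70 and HSP110 genes, 0.01 for the 17 HSP90 genes and co-chaperones and 0.08 for the 41 DNAJ genes tested, and these 3 medians turned negative when libraries were scaled by total counts only. The 11 chaperonins had a median of -0.11. Without overlap between the ages, 3 HSP70, 3 HSP90, 19 DNAJ and 0 chaperonin genes were higher, where 23.3% of all genes tested were. In the reverse order stood 2, 2, 8 and 3 genes of these lists, where 22.8% of all genes tested did. edgeR's test called 0 genes of these 4 lists, and at an unadjusted p under 0.05 they held 1, 1, 7 and 0 genes that were higher, where 7.24% of all genes were, and 0 that were lower. DESeq2 called 1 HSP70, 1 HSP90 and 2 DNAJ genes and 0 chaperonins higher, where it called 3.09% of all genes higher. The stress-inducible Hspa1a and Hspa1b, whose near-identical sequences make their counts uncertain, overlapped between the ages. Hspa1b was at 43.72 and 32.72 CPM in aged and 14.7 and 52.31 CPM in young MFP, and its heat-inducible co-chaperone Dnajb1 at 26.65 and 29.69 against 33.85 and 25.91 CPM. The constitutive Hspa8, at 556 and 625.8 against 566.1 and 684.6 CPM, and Hsp90aa1, at 116.4 and 125.6 against 115.6 and 117.5 CPM, overlapped too. The members nearest to this range were Hspb1 and Cryab, with log2 fold changes of 0.92 and 1.01.

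A few chaperone genes stood out from their lists in the direction of the small heat shock proteins, and others in the reverse. Unc45b, the HSP90 co-chaperone that folds muscle myosin, was at 57.99 and 85.04 CPM in aged and 23.16 and 27.05 CPM in young MFP, which gave a log2 fold change of 1.51 (SE 0.25, with an adjusted p = 0.36 in edgeR's test). That is close to the 1.57 of Hspb2. Hspa1l, with 5.369 and 6.378 against 0.9027 and 1.165 CPM, differed by a log2 fold change of 2.50 (SE 0.31, with an adjusted p = 0.36 in edgeR's test), but the antisense gene Gm10501 covers 71.9% of its exon bases. Dnajb13 had a log2 fold change of 1.66 (SE 0.40). In the reverse direction, Dnajc22 was at -0.98 (SE 0.43), Hsf5 at -0.89 (SE 0.36) and the chaperonin Hspe1 at -0.49 (SE 0.22), each lower in both aged libraries.

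The partners of Hspb8 and the filaments that the family protects were examined last. Bag3, which pairs with Hspb8, was at 69.21 and 67.68 CPM in aged and 33.96 and 52.08 CPM in young MFP, which gave a log2 fold change of 0.67 (SE 0.25, with an adjusted p = 0.477 in edgeR's test). Unlike Hspb8, Bag3 was nearly equal in the aged replicates. Its fellow autophagy genes Synpo2 and Sqstm1 had log2 fold changes of 1.19 and 0.70 (adjusted p = 0.404 and 0.436 in edgeR's test). All 12 genes of this list had a positive log2 fold change, with a median of 0.29, and 10 of the 12 were higher without overlap, as were 23.3% of all genes tested. Some of the 12 values were near 0, such as 0.03 for Stub1 and 0.08 for Bag5. With libraries scaled by total counts only the median was 0.10, so the shared sign may depend on the scaling. Des, which encodes the desmin that Cryab protects, was at 507.2 and 752 CPM in aged and 122.3 and 132 CPM in young MFP, which gave a log2 fold change of 2.31 (SE 0.26, with an adjusted p = 0.36 in edgeR's test). Flnc, the filamin bound by Hspb7, was at 224.6 and 411.2 against 63.93 and 86.91 CPM, a log2 fold change of 2.08 (SE 0.38, with an adjusted p = 0.361 in edgeR's test). Of the 14 cytoskeletal partners, 8 were higher and 4 lower without overlap (23.3% and 22.8% of all genes tested), and their median was 1.90. DESeq2 called 7 of them higher (3.09% of all genes), while edgeR's test called 0 with 7 higher at an unadjusted p under 0.05 (7.24% of all genes).

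**Figure D5:**
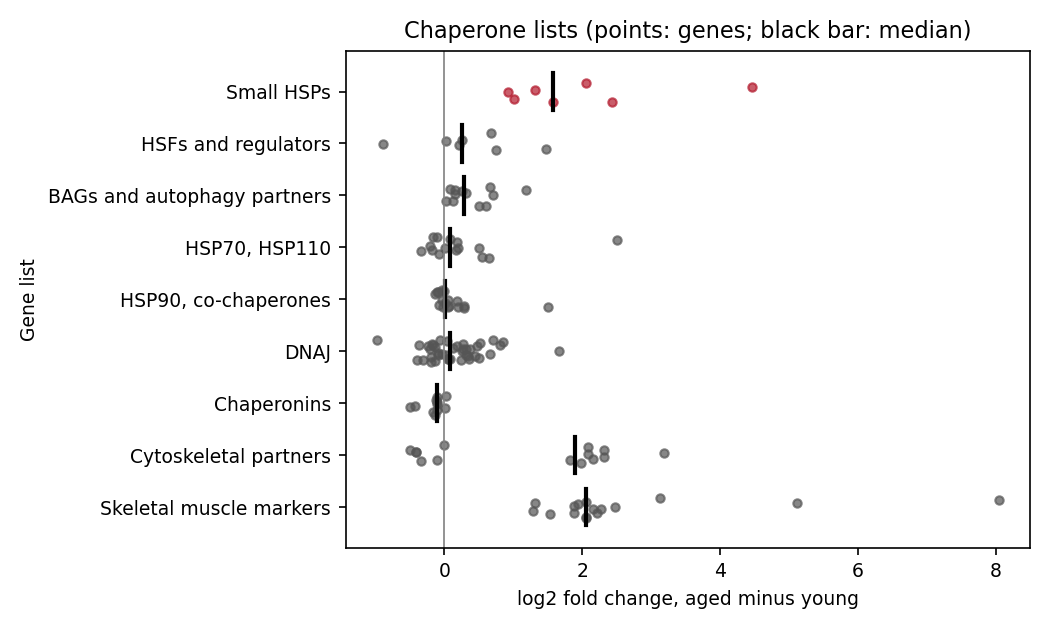
log2 fold change (aged minus young) of each tested gene of the chaperone lists and of the skeletal muscle markers, one point per gene, with a black bar at each median. The 7 small heat shock protein genes in red have a median of 1.57, between the skeletal muscle markers (2.06) and cytoskeletal partners (1.90) on one side and the 6 other chaperone lists drawn (-0.11 to 0.29) on the other.

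The genes most like each member over the 4 libraries were found by the distance between log2 CPM values centred on each gene's mean, among 16220 genes with a mean log2 CPM of at least 0 (16221 for Hspb3), as a description. For Cryab they were Gpc1, Vldlr and Sgcb, a sarcoglycan of muscle membranes, at distances of 0.04 to 0.10, and for Hspb8 Fhl3, a LIM protein of muscle, Gm12319 and 5430431A17Rik, at 0.08 to 0.17. Among the genes nearest to Hspb2 were Pknox2, a homeobox transcription factor, and Unc45b, at 0.06 and 0.10. Hspb6 was nearest to Apobec2, Fbp2, the muscle form of fructose bisphosphatase, and Syt14, at 0.18 to 0.22.
Hspb1 was nearest to Gprin2, Atp2b2 and Smpdl3b, at 0.13 to 0.14, and Hspb3 to Myoc, Gm12224 and Fcgbp, at 0.27 to 0.34. Hspb7 had no close neighbour, the nearest being Igha, the heavy chain of immunoglobulin A, at 0.89, then Sprr1a at 1.37 and Kcnj15 at 1.40. No skeletal muscle marker, and no marker of another cell type listed, was among the 3 genes nearest to any member. The marker lists are short beside 16220 candidates, so such a miss was likely and says little about the source of the RNA. Unc45b alone among these nearest genes was on a chaperone list. No member was among the 3 genes nearest to another member. The closest pair within the group was Hspb2 and Hspb8 at 0.52, and between 41 and 887 genes lay nearer to a member than its closest fellow did.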

How the data were processed

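RNA of 2 aged and 2 young MFP samples was sequenced, without ribosomal RNA, from libraries that keep the strand. The authors deposited one count per gene and sample, neither normalized nor pooled. The submitters' processing notes list R 3.6.1, featureCounts, GRCm38 and hg38 without roles. The aligner, the annotation and the strand setting are not given in the sources used here.

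From these counts, genes passing filterByExpr were TMM-scaled and fitted by edgeR's quasi-likelihood method, glmQLFit with glmQLFTest (age as the only term, Benjamini-Hochberg adjusted p of 0.05), in R 4.3.3 with edgeR 4.0.16 and limma 3.58.1. Standard errors came from the F statistic. DESeq2 1.42.0 was an alternative, as in the study's own methods. The scripts were tested on simulated counts. With 2 samples per age, exact permutation of one value reaches p = 0.333 at best (two-sided), so p-values rest on the spread estimated across genes, and the replicates' sources beyond their labels are unknown. GENCODE M21 on GRCm38 gave positions, overlaps and lengths and held 55141 of the 55487 identifiers.

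The members and gene lists were chosen with earlier results of these data known. The text names the members, the 2 largest changes and 2 highest levels of each list or a choice from these, a few standing chaperones and partners, the 3 nearest genes to each member (1 of them is not reported here) and the top marker. Same-numbered samples did not deviate together (correlation -0.48 across 22485 genes), so replicate numbers were not used as pairs. With 2 samples per age, this also means that opposite-numbered samples deviated together to the same extent. The reason was not tested. Alternatives covered scaling, filters, a replicate block, DESeq2, the length used and leaving out each library. The crossed block was added after seeing the data.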

Additional observations from a re-analysis of the deposited data

How the results depend on the processing

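For all 7 small heat shock protein genes both aged libraries were above both young libraries under each scaling, an order that the other alternatives cannot change. The median of the 7 ranged from 1.32 to 1.78 over 14 alternatives. Every one of 98 refitted member values was positive, which follows from that order and adds no support. Of these values, 7 moved by more than the spread between replicates. The number of genes called by edgeR was 0 in 13 alternatives and 852 with DESeq2. Adding a replicate block left 0 genes called, with 1346 at an unadjusted p under 0.05, and moved the median of the DNAJ genes from 0.08 to 0.12. With the crossed block, 0 genes were called, with 2494 at an unadjusted p under 0.05 and a DNAJ median of 0.12. Neither block changed a call.

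Scaling by total counts only moved the median log2 fold change of all genes tested from -0.04 to -0.22. The list medians moved with it, to 0.07 for heat shock factors, 0.10 for BAG and autophagy genes, -0.09 for HSP70, -0.18 for HSP90, -0.10 for DNAJ, -0.30 for chaperonins and 1.70 for cytoskeletal partners. Upper quartile scaling gave 0.22 for heat shock factors. With each library left out, which leaves 1 sample in an age and assumes that it varies like the others, the medians ranged from 0.22 to 0.38 for heat shock factors, 0.22 to 0.46 for BAG and autophagy genes, -0.02 to 0.19 for HSP70, -0.02 to 0.12 for HSP90, 0.08 to 0.19 for DNAJ, -0.26 to 0.01 for chaperonins and 1.46 to 2.17 for cytoskeletal partners. The cause of these moves was not tested. In the order of levels, 3 of the 7 genes kept their place with coding length and 2 without length.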
